A study of Mus musculus with 24 samples.

Results

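A set of 40 genes that answer to interferon was followed in liver messenger RNA from 24 mice, 18 of a steatohepatitis model and 6 normal controls. Steatohepatitis is a state in which the liver stores fat and is inflamed. The genes were chosen by name from the 78298 gene IDs of the count table, with earlier results of these data known. They fall into 27 type I antiviral genes, 6 genes of the IRF and STAT transcription factors and 7 interferon-gamma-induced GTPases. All 40 were found and all 40 passed the expression filter, so no member is missing from the tests. Each mouse gave 1 library, made from poly(A)-captured liver RNA. The labels give neither the way the model was made nor the strain, sex, age or duration, and they treat the 18 model mice as 1 group. Nothing shared by both groups beyond the tissue is named, and whether the mice were littermates or handled together is not given either, so p-values measure the spread between these animals only. Total counts lay between 32.2 M and 58.4 M in model libraries and between 31.6 M and 49.5 M in control libraries. A list of 6 hepatocyte markers, Alb among them, summed to at least 55637 CPM (counts in 1 M, scaled by TMM factors) in every library, as the tissue label has it. The question is whether interferon-responsive genes differ between model and control livers, whether the 3 gene groups differ alike, and how much the model mice vary from one to the next.

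Interferons are secreted proteins that cells release on sensing foreign or misplaced nucleic acid and on immune activation. Type I interferons (alpha and beta) bind the IFNAR receptor and act through the kinases JAK1 and TYK2 on a complex of STAT proteins and IRF9, which binds a DNA element called the interferon-stimulated response element, or ISRE. Interferon gamma, made mainly by T cells and natural killer cells, acts through IFNGR, JAK1 and JAK2 on a STAT dimer that binds the gamma-activated sequence, or GAS, and induces IRF1, which binds ISREs in turn. The products include enzymes and sensors that block viral replication and the transcription factors that carry the signal on. They also include the guanylate-binding proteins (GBP) and immunity-related GTPases (IRG), families with members that attack vacuoles holding microbes.

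Most of these genes were higher in the model livers, and none was called lower. Of the 40, 35 were called higher and 5 were not called (edgeR's quasi-likelihood F test over 17456 genes, p adjusted by Benjamini-Hochberg and below 0.05). The livers differed widely in general: 60% of all tested genes were called, 31.2% higher and 28.8% lower. A change of at least 2-fold upwards was called for 21 of the 40, against 16.3% of all tested genes. Of the 40, 20 had every model mouse above every control mouse in CPM, against 9.67% of all tested genes. The median log2 fold change, model over control, was 1.19 over the 40 and 0.01 over all tested genes. Scaling by library totals alone moved the median of all tested genes to 0.34, and upper-quartile factors moved it to 0.11, so fold changes below these shifts depend on the scaling. By group, 26 of 27 type I antiviral genes were called higher with a median of 1.43, 5 of 6 IRF and STAT genes with a median of 0.34, and 4 of 7 GTPase genes with a median of 0.31. These medians describe the groups, and the difference between them was not tested. Because the 40 were chosen with earlier results of these data known, their excess over all tested genes is not independent support. In bulk tissue, a change in the number of cells that carry a transcript and a change in transcript per cell cannot be told apart.

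**Figure D1:**
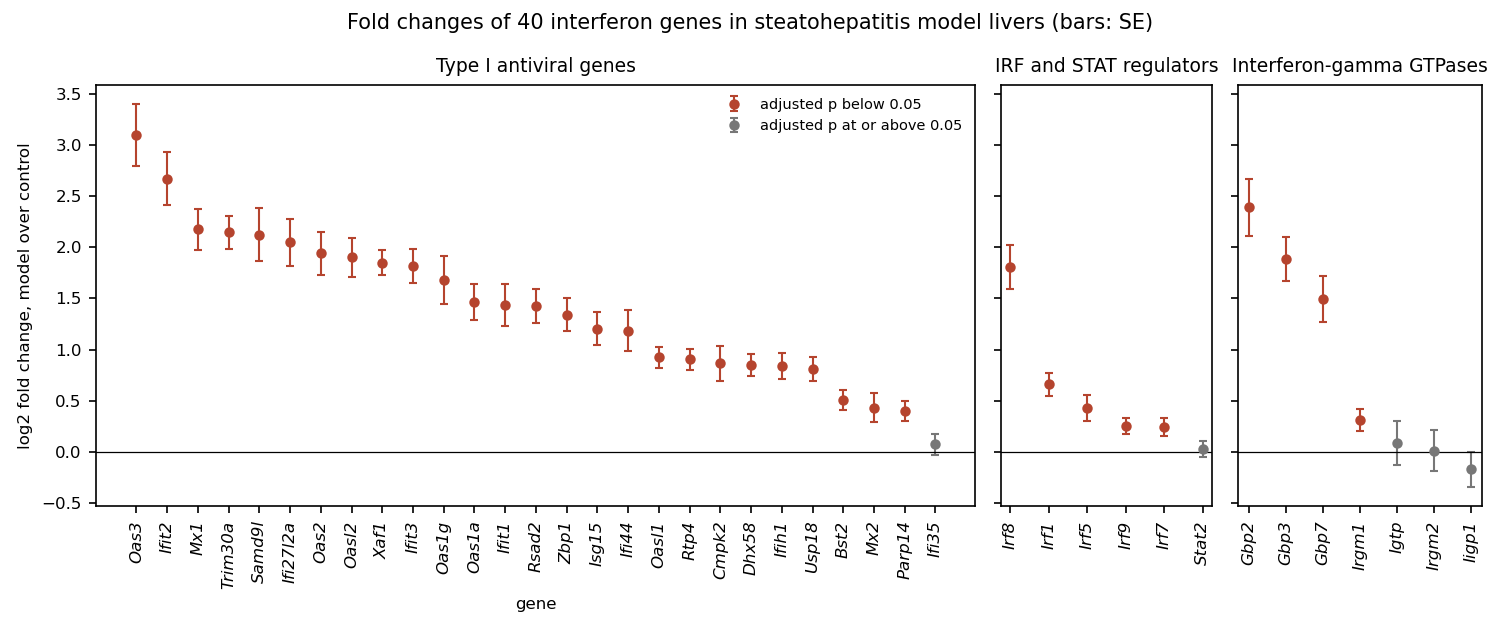
Log2 fold change, model over control, of the 40 interferon genes in 3 panels (y axis), with the gene on the x axis and bars of 1 SE. Points in red passed an adjusted p of 0.05 and points in grey did not: 26 of 27 type I genes, 5 of 6 IRF and STAT genes and 4 of 7 GTPase genes are red, and no red point lies below 0.

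Which of the 2 DNA elements stand in front of these genes was read from the RefSeq promoter table (build GRCm38.p6, 250 bases before to 50 after each start), since the fold changes split genes of 1 family. Of the 40 genes, 30 were in it. The ISRE was searched as GAAANNGAAA on either strand (TTTCNNTTTC on the other), and matches may overlap each other. At least 1 match stood in 17 of the 30 promoters (56.7%), against 3.99% of 27025 genes in the table. It was found for 10 of 18 type I genes, for 1 of 6 IRF and STAT genes (Stat2) and for 6 of 6 GTPase genes. The GAS, searched as TTCNNNGAA, which reads the same on both strands and can overlap an ISRE, stood in 9 of 30 (30%), against 9.55% of the table. A match is a run of letters and not a measured binding site. The promoters below show 3 genes with an ISRE match whose transcripts behaved differently: Isg15 and Gbp2, which were called higher, and Igtp, which was not. Sequences run 5′ to 3′ on the gene's own strand with the ISRE letters in capitals. In Isg15 (chr4:156200769-156201068, minus strand) the capitals span 3 overlapping matches; Gbp2 lies at chr3:142620413-142620712 and Igtp at chr11:58199306-58199605, both on the plus strand.
Isg15: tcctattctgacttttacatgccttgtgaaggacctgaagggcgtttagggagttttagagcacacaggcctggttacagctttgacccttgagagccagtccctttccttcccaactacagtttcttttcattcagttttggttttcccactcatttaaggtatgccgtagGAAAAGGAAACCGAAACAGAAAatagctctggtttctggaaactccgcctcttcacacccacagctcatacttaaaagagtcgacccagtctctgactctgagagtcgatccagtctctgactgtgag
Gbp2: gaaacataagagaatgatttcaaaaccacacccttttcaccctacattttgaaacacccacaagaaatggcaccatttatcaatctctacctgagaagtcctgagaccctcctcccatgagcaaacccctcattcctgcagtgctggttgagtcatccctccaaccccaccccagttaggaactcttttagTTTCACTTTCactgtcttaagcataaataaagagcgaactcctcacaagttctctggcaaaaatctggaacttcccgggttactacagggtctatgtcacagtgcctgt
Igtp: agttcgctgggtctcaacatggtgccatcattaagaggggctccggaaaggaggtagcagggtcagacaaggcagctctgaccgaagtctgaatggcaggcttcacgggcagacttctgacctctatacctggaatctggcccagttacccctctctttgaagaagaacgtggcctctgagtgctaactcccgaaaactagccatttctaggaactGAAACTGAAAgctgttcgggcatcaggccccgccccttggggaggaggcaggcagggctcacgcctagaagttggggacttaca
A stretch of 30 bases around 1 match in each of the other 4 GTPase promoters and in Stat2 is printed for genes called and not called alike; the search itself fixes 8 of the 10 capital letters. Gbp3, Gbp7 and Irgm1 were called higher, and Irgm2 and Stat2 were not.
Gbp3: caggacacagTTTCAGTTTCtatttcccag
Gbp7: gtgtgtgcagTTTCAGTTTCagttctccat
Irgm1: cctgtttcaaGAAATAGAAAccgaaactga
Irgm2: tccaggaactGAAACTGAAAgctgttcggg
Stat2: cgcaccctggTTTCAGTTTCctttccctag
These stretches lie at chr3:142559989-142560018 (Gbp3), chr3:142530273-142530302 (Gbp7), chr11:48871431-48871460 (Irgm1, minus strand), chr11:58214903-58214932 (Irgm2) and chr10:128270266-128270295 (Stat2). The 10-base matches printed for Igtp and Irgm2 read GAAACTGAAA, and those for Gbp3, Gbp7 and Stat2 read TTTCAGTTTC, which are the same bases read on the other strand. An ISRE match was present in 14 of 26 promoters of genes called higher and in 3 of 4 promoters of genes not called. A GAS match was present in 6 of 26 promoters of genes called higher (23.1%) and in 3 of 4 promoters of genes not called (Ifi35, Igtp and Irgm2). The stretches around the GAS of Igtp and of Irgm2 are nearly the same, so these matches are not independent. Iigp1, which was not called either, is not in the promoter table. With 4 promoters of genes not called, these shares do not show a difference in either element.

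The antiviral effector genes held the 2 highest fold changes of the 40. The oligoadenylate synthetases make a short nucleotide messenger that switches on RNase L. Oas3 (chr5:120891163-120915726, GRCm39) had 1.06, 2.61 and 5.59 CPM as the lowest, median and highest of the model mice, against 0.135, 0.27 and 0.568 CPM in control mice. Every model mouse lay above every control, with model 10 the lowest and model 2 the highest. Its log2 fold change was 3.10 (SE 0.30, edgeR adjusted p = 3.92e-09), the highest of the 40, on the lowest level per length of the 40 (median 0.893 TPM, a level per transcript length, in model mice). The other 5 genes with Oas or Oasl names among the 40 were called higher too: Oas2 at 1.94, Oasl2 at 1.90, Oas1g at 1.68, Oas1a at 1.47 and Oasl1 at 0.92. Oas1c (1.77) and Oas1b (0.87), listed apart, were also called higher. Whether each product makes the messenger is not shown by these data. Oas1a and Oas1g are close copies, and how reads shared by them were counted is not given, so their separate values are uncertain.

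The IFIT proteins bind viral RNA. Ifit2 (chr19:34528094-34553819) had 2.39, 6.49 and 11.6 CPM as lowest, median and highest in model mice, against 0.724, 1.02 and 1.53 CPM in control mice. The groups did not overlap, and model 10 again gave the lowest value, while model 17 gave the highest. The log2 fold change was 2.67 (SE 0.26, edgeR adjusted p = 3.6e-09). Ifit3, whose human counterpart steadies the complex of IFIT proteins, was at 15.5, 25.0 and 39.8 CPM in model mice and at 4.34, 6.54 and 9.87 CPM in control mice. It did not overlap between groups either, with a log2 fold change of 1.82, and Ifit1 followed at 1.44. Ifit3 has a close copy, Ifit3b, which was listed apart and called higher at 1.77.

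Mx1 encodes a dynamin-like GTPase that traps viral ribonucleoproteins. It had 1.99, 3.57 and 5.96 CPM in model mice and 0.71, 0.80 and 0.995 CPM in control mice. The 6 controls lay close together, and all 18 model mice were above them (log2 fold change 2.18, SE 0.20, edgeR adjusted p = 1.54e-09). Its relative Mx2 had a log2 fold change of 0.43 (SE 0.14), and its groups overlapped: 7 of 18 model mice exceeded every control.

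Isg15 encodes a ubiquitin-like protein joined to other proteins, and Usp18 the protease that removes it and also dampens IFNAR signalling. Isg15 had 3.86, 5.56 and 7.99 CPM as lowest, median and highest in model mice and 1.86, 2.08 and 3.91 CPM in control mice. Only control 4, at 3.91 CPM, reached into the model range, which it met at model 10. The log2 fold change was 1.20 for Isg15 (SE 0.16, edgeR adjusted p = 5.75e-07) and 0.81 for Usp18. Of the exon bases of Isg15, 34.6% also belong to a gene on the other strand, and without a known strand setting reads of both cannot be told apart.

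Bst2, or tetherin, which holds budding virus at the cell surface, was the most abundant of the 40 per length, with a median of 417 TPM in model mice. In CPM it stood at 116, 153 and 208 in model mice and at 94.9, 107 and 127 in control mice. The groups overlapped, and 16 of 18 model mice exceeded every control (log2 fold change 0.51, SE 0.10, edgeR adjusted p = 7.89e-05). With an index of circadian clock genes as a covariate it was 0.28 (adjusted p = 0.173). Ifi27l2a, which encodes a small interferon-induced protein, was the next of the antiviral genes per length at a median of 63.4 TPM in model mice and had a log2 fold change of 2.05.

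Among the remaining antiviral genes, Trim30a (2.14), Samd9l (2.12), Xaf1 (1.85), Rsad2 and Zbp1 were at least 2-fold higher with no overlap between groups. Ifih1 and Rtp4, below 2-fold, did not overlap either. Rsad2, which encodes viperin, a radical enzyme that makes a chain-ending nucleotide, was at 1.43. Cmpk2, the kinase that lies beside it on chromosome 12 and supplies its substrate, was at 0.87. Zbp1, a sensor of Z-form nucleic acid that can start necroptosis, was at 1.34. The cytosolic RNA sensor gene Ifih1 (MDA5) and its regulator Dhx58 (LGP2) were at 0.84 and 0.85. Ifi44 (1.19), Rtp4 (0.91) and Parp14 (0.40) were called as well. The single antiviral gene not called was Ifi35, which had 17.8, 22.6 and 32.8 CPM in model mice against 19.6, 21.2 and 24.4 CPM in control mice. Its controls lay inside the model range, and its log2 fold change of 0.08 had a 95% interval from -0.14 to 0.29.

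**Figure D2:**
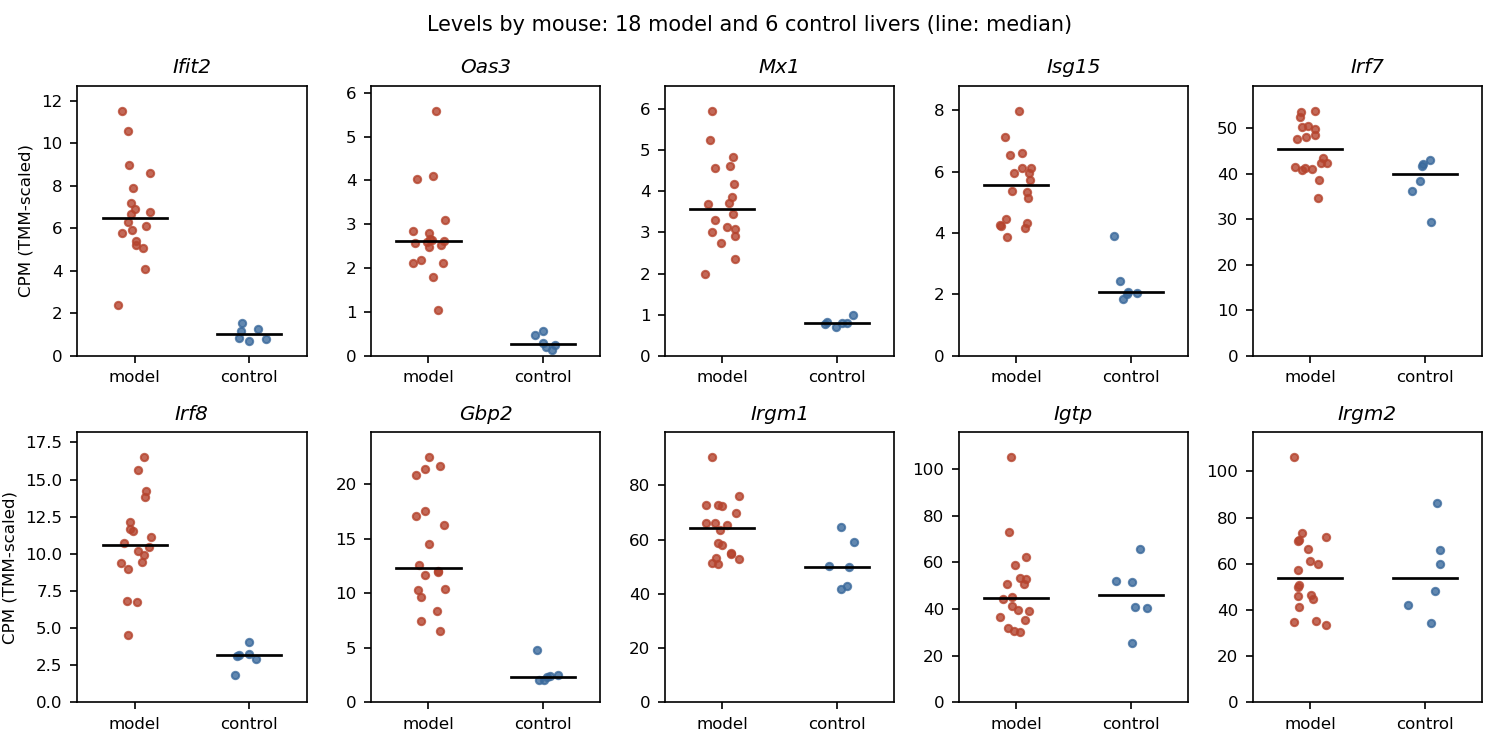
CPM scaled by TMM factors (y axis, linear from 0) of 10 of the genes in each of the 18 model livers (red, left) and 6 control livers (blue, right), with a line at each group's median. Ifit2, Oas3, Mx1, Irf8 and Gbp2 do not overlap between groups, Isg15 is reached by control 4 alone, and Igtp and Irgm2 overlap broadly, with model 1 on top at 105 and 106 CPM.

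Of the 6 transcription factor genes, 5 had log2 fold changes under 1, and Irf8 was the exception. Irf8, a factor that directs the formation of monocytes, dendritic cells and B cells, had 4.56, 10.6 and 16.5 CPM in model mice and 1.83, 3.18 and 4.05 CPM in control mice. No model mouse overlapped the controls, and model 10 was the lowest model mouse (log2 fold change 1.81, SE 0.21, edgeR adjusted p = 6.48e-08). Irf1, the immediate target of the gamma pathway, was at 25.1, 37.5 and 52.4 CPM in model mice, against 18.5, 24.0 and 30.4 CPM in control mice. Its highest value came from model 1, and 17 of 18 model mice exceeded every control (0.66, SE 0.11, edgeR adjusted p = 1.13e-05). Genes on the other strand share 36.5% of its exon bases.

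Irf7, the factor that amplifies interferon alpha production, had 34.7, 45.6 and 53.9 CPM in model mice and 29.5, 40.1 and 43.0 CPM in control mice. The ranges overlapped broadly, with 10 of 18 model mice above every control. Its log2 fold change of 0.24 (SE 0.09, edgeR adjusted p = 0.0167) was not called without control 1 (0.18, adjusted p = 0.0767), nor once an index of clock genes was a covariate (0.11, adjusted p = 0.576).

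Irf9, a DNA-binding partner of STAT2, stood at 29.9, 39.2 and 42.9 CPM in model mice, against 27.2, 30.0 and 44.1 CPM in control mice. No model mouse exceeded control 4, which was the highest of all 24 (log2 fold change 0.26, SE 0.08, edgeR adjusted p = 0.00591). Irf5, a factor of macrophage activation, had 6.86, 10.5 and 13.6 CPM in model mice and 6.15, 7.64 and 10.3 CPM in control mice. Of the model mice, 11 exceeded every control (0.43, SE 0.13, edgeR adjusted p = 0.00516), and it was not called once the clock index was a covariate (0.42, adjusted p = 0.124).

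Stat2, the subunit specific to the type I and type III pathways, had 40.6, 45.5 and 61.7 CPM in model mice and 38.7, 45.9 and 53.6 CPM in control mice. All but 2 of the model mice lay within the control range, and the log2 fold change was 0.03 with a 95% interval from -0.13 to 0.19.

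Set beside further genes of their families, these 6 factors were neither the highest nor the lowest. Of 8 IRF genes listed, 7 were called higher and 1 lower. Irf4, a lymphocyte factor, was at 2.02 and Irf2 at 0.33, and the lower one was Irf3, the factor that first induces interferon beta, at -0.21 (0.12 with library totals alone). Of 6 STAT genes listed, Stat4 (1.86, on 13 counts in all control libraries together) and Stat5a (0.67) were called higher, and Stat5b (-0.19) and Stat6 (-0.14) lower. Stat3 (-0.05) was not called, like Stat2. These STAT counts lie near the shares of all tested genes, 31.2% called higher and 28.8% lower. With library totals alone Stat5b was at 0.14, while 5 of the 6 were called higher, Stat6 (0.19) and Stat3 (0.28) among them. None of the 6 was called lower with those totals or with upper-quartile factors.

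**Figure D3:**
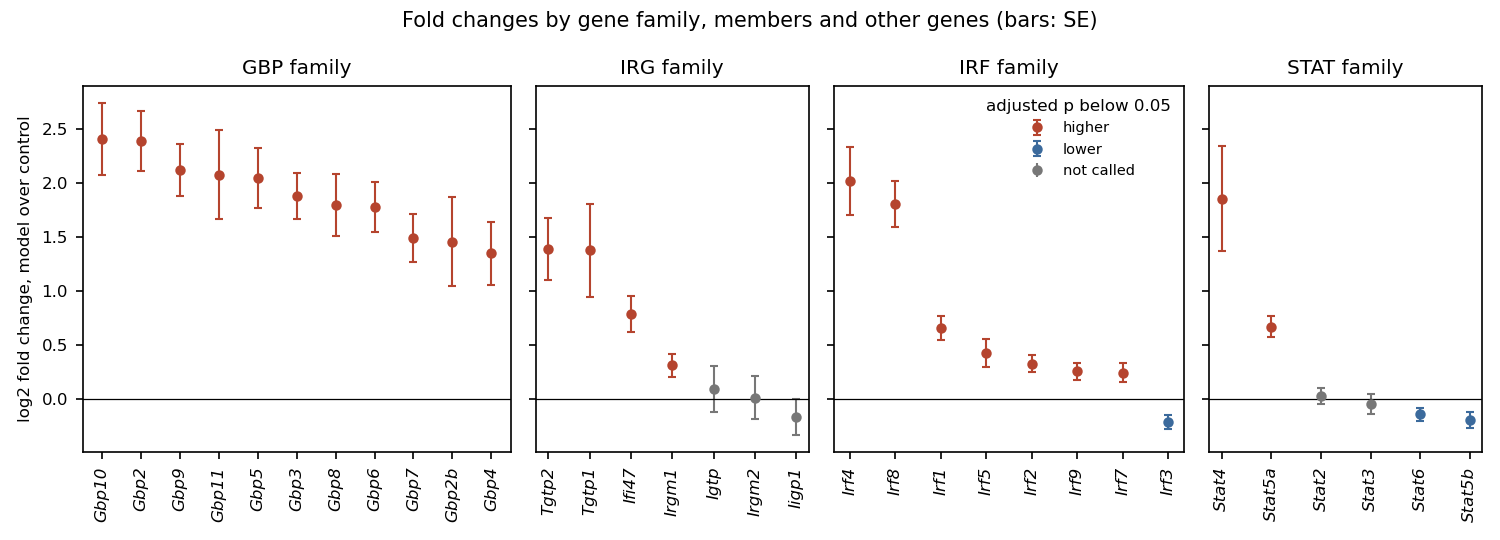
Log2 fold change, model over control, with bars of 1 SE (y axis) for the listed genes of the GBP, IRG, IRF and STAT families (x axis); red was called higher, blue lower and grey not called. All 11 GBP genes lie between 1.35 and 2.41, while the 7 IRG genes run from -0.17 to 1.39.

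All 3 guanylate-binding proteins among the 40 were called higher. Gbp2 (chr3:142326363-142343769), whose ISRE letters are printed with its promoter, had 6.53, 12.3 and 22.5 CPM in model mice against 2.04, 2.36 and 4.76 CPM in control mice. The groups did not overlap, with model 1 the highest model mouse and control 4 the highest control (log2 fold change 2.39, SE 0.28, edgeR adjusted p = 7.28e-08). Gbp3 had 6.08, 9.12 and 16.5 CPM in model mice and 1.92, 2.22 and 4.48 CPM in control mice, again with no overlap (1.88, SE 0.21, edgeR adjusted p = 4.47e-08). Gbp7 had 4.41, 8.06 and 13.5 CPM in model mice and 1.35, 2.75 and 5.29 CPM in control mice. Only control 4 reached the model range there, and 16 of 18 model mice exceeded it (1.49, SE 0.23, edgeR adjusted p = 3.08e-06). The 8 other GBP genes were also called higher, so that 11 of 11 were, with a median of 1.88, and 6 of the 11 did not overlap between groups. Among all tested genes 31.2% were called higher and 9.67% lay higher without overlap. Many GBP genes are close copies of each other, and reads that match more than 1 of them make single values uncertain.

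The IRG family, of which some members mark and break vacuoles around parasites and bacteria, is represented by 4 of the 40 genes. Irgm1 alone of these was called. Irgm1 had 50.9, 64.4 and 90.4 CPM in model mice and 41.9, 49.9 and 64.8 CPM in control mice. Its groups overlapped, with 9 of 18 model mice above every control (log2 fold change 0.31, SE 0.11, edgeR adjusted p = 0.0157), and it was not called without control 5 (0.26, adjusted p = 0.0575) or without control 6 (0.25, adjusted p = 0.0596). Iigp1, or IRGA6, was the most abundant GTPase gene per length, with a median of 94.8 TPM in model mice. In CPM it had 143, 228 and 313 in model mice and 153, 243 and 402 in control mice. No model mouse exceeded control 4, and the log2 fold change of -0.17 (0.15 with library totals alone) had a 95% interval from -0.52 to 0.19 (edgeR adjusted p = 0.407).

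Igtp (chr11:58090382-58098417), also called IRGM3, had 30.1, 44.7 and 105 CPM in model mice and 25.3, 46.2 and 65.7 CPM in control mice. All but 2 model mice lay within the control range, and the log2 fold change was 0.09 with a 95% interval from -0.35 to 0.53. Irgm2 (chr11:58090444-58113608), whose annotated span overlaps that of Igtp, had 33.3, 54.1 and 106 CPM in model mice and 34.4, 53.9 and 86.1 CPM in control mice. Model 1 alone exceeded every control, and the log2 fold change was 0.01 with an interval from -0.40 to 0.43. These intervals do not show that levels were equal. Of the 7 IRG genes tested, 4 were called higher, adding Tgtp2 (1.39), Tgtp1 (1.38) and Ifi47 (0.79), against 31.2% of all tested genes. None was free of overlap between groups, against 9.67% of all tested genes that lay higher without overlap.

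The genes around these 40 in the pathway were listed by role. No transcript of most interferons was counted: 18 of 21 ligand genes, among them Ifnb1 and all the listed Ifna genes, had 0 counts in all 24 libraries. Over the summed libraries, 3 counts would stand for 0.00409 CPM in model and 0.0129 CPM in control livers, which is the level that a count of 0 allows, and this limit covers counting error only. Trex1, a nuclease gene expressed in many cell types, was listed at 0 in all 24 libraries too, and whether a 0 here comes from how reads were counted was not tested. Ifng had 29 counts in 15 of 18 model libraries and 4 counts in 2 of 6 control libraries. Ifnk had 42 counts in model and 5 in control libraries, and Ifnz had 3 in model and 1 in control libraries. None of the ligands passed the expression filter, so none was tested. Many of these ligand genes are close copies of each other, and how reads shared by copies were counted is not given.

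Of 8 receptor and kinase genes tested, 3 were called higher and none lower. Among all tested genes 31.2% were called higher and 28.8% lower, so 3 of 8 is near the share of all genes. With upper-quartile factors 7 of the 8 were called higher, and with library totals alone all 8. Higher calls were then 62.8% and 85.8% of all calls. Both chains of the interferon gamma receptor were among the 3, Ifngr1 at 0.59 and Ifngr2 at 0.47. The third was Ifnlr1, the specific chain of the lambda receptor, at 1.22 (SE 0.50), on 34 counts in all control libraries together. Ifnar1 (0.06), Ifnar2 (-0.11, and 0.22 with library totals alone), Jak1 (0.06), Tyk2 (0.11) and Jak2 (0.19) were not called. Of 16 genes of nucleic acid sensing, 11 were called higher and 2 lower. The endosomal receptors Tlr9 (3.99, SE 0.60) and Tlr8 (3.41) led, but with 5 and 29 counts in all control libraries together. The control median of Tlr9, 0.0304 CPM, is below the level that 3 counts stand for in any library (0.0514 CPM or more). The adaptor Mavs (-0.36) and the ligase Trim25 (-0.54), both of RNA sensing in the cytosol, were the 2 lower ones, though neither was called with library totals alone. Of 10 negative regulators listed, 9 were tested, without Trex1. Among them 5 were called higher, led by Tnfaip3 at 2.16, and 2 lower, Irf2bp2 at -1.21 and Pias1 at -0.16. With library totals alone Pias1 was called higher, at 0.17.

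Other known targets were mostly called higher as well, against 31.2% of all tested genes called higher and 28.8% lower. Of 52 further type I targets tested, 43 were called higher and 2 lower (median 0.99), with Ifi209 (2.49) and Epsti1 (2.38) at the top and Tor3a (-0.74) and Helz2 (-0.48) at the bottom; with library totals alone none was called lower. Of 23 further gamma targets tested, all 23 were called higher, with a median of 1.80. Ciita, the master factor of MHC class II genes, had 1.28, 4.26 and 7.58 CPM in model mice and 0.338, 0.487 and 0.894 CPM in control mice. It did not overlap between groups (2.98), and Nos2, the inducible nitric oxide synthase gene, followed at 2.68, with a median of 0.208 CPM in model and 0.0147 CPM in control mice. The control median is below the level that 3 counts stand for in any library (0.0514 CPM or more). Of the 23, 11 are GBP and IRG genes, so the list and the families above share members.

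Markers of immune cells differed along with these genes. For comparison, 31.2% of all tested genes were called higher and 28.8% lower. Of 12 macrophage markers, 10 were called higher, with a summed level of 210 to 687 CPM in model mice (median 374) against 56.5 to 118 CPM in control mice (median 73.9). All 8 T cell markers were called higher, summing to 2.70 to 13.5 CPM in model mice against 2.30 to 4.12 CPM in control mice. Of the natural killer markers tested, 2 of 4 were called higher. The plasmacytoid dendritic cell markers, whose cells are a main source of interferon alpha, summed to 0.607 to 1.76 CPM in model mice against 0.220 to 0.710 CPM in control mice, with 2 of 3 tested markers called higher. B cell (5 of 5), conventional dendritic cell (5 of 6), neutrophil (3 of 4) and endothelial markers (5 of 6) were called higher too, and 5 of 6 hepatocyte markers lower. None of these marker lists was at 0, and the part of cell composition in the changes of the 40 genes was not tested.

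The groups also differed in clock genes, which follow the time of day. An index of 12 such genes was the mean of their levels in SD units. Signs came from the main axis of variation of these genes over the same 24 libraries, turned so that Bmal1 counts upwards. The index ran from -0.65 to -0.09 in model mice and from -0.63 to 1.96 in control mice, where control 6 alone lay inside the model range. As its signs were fitted to these data and it largely follows group, index and group cannot be fully told apart. Control 6 was below every model mouse for 32 of the 40 genes, 31 of them among the 35 called, and below the model median for 39 of 40. Control 6 is a single mouse and was itself among the controls behind these calls. The part of the clock in the changes of the 40 genes was not tested. Of all tested genes, control 6 was below every model mouse for 24.5%, or 66.1% of the genes called higher, and below the model median for 52%. With the index as a covariate 32 of the 40 were still called higher, without Bst2, Irf5 and Irf7, against 21.8% of all tested genes in that fit.

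**Figure D4:**
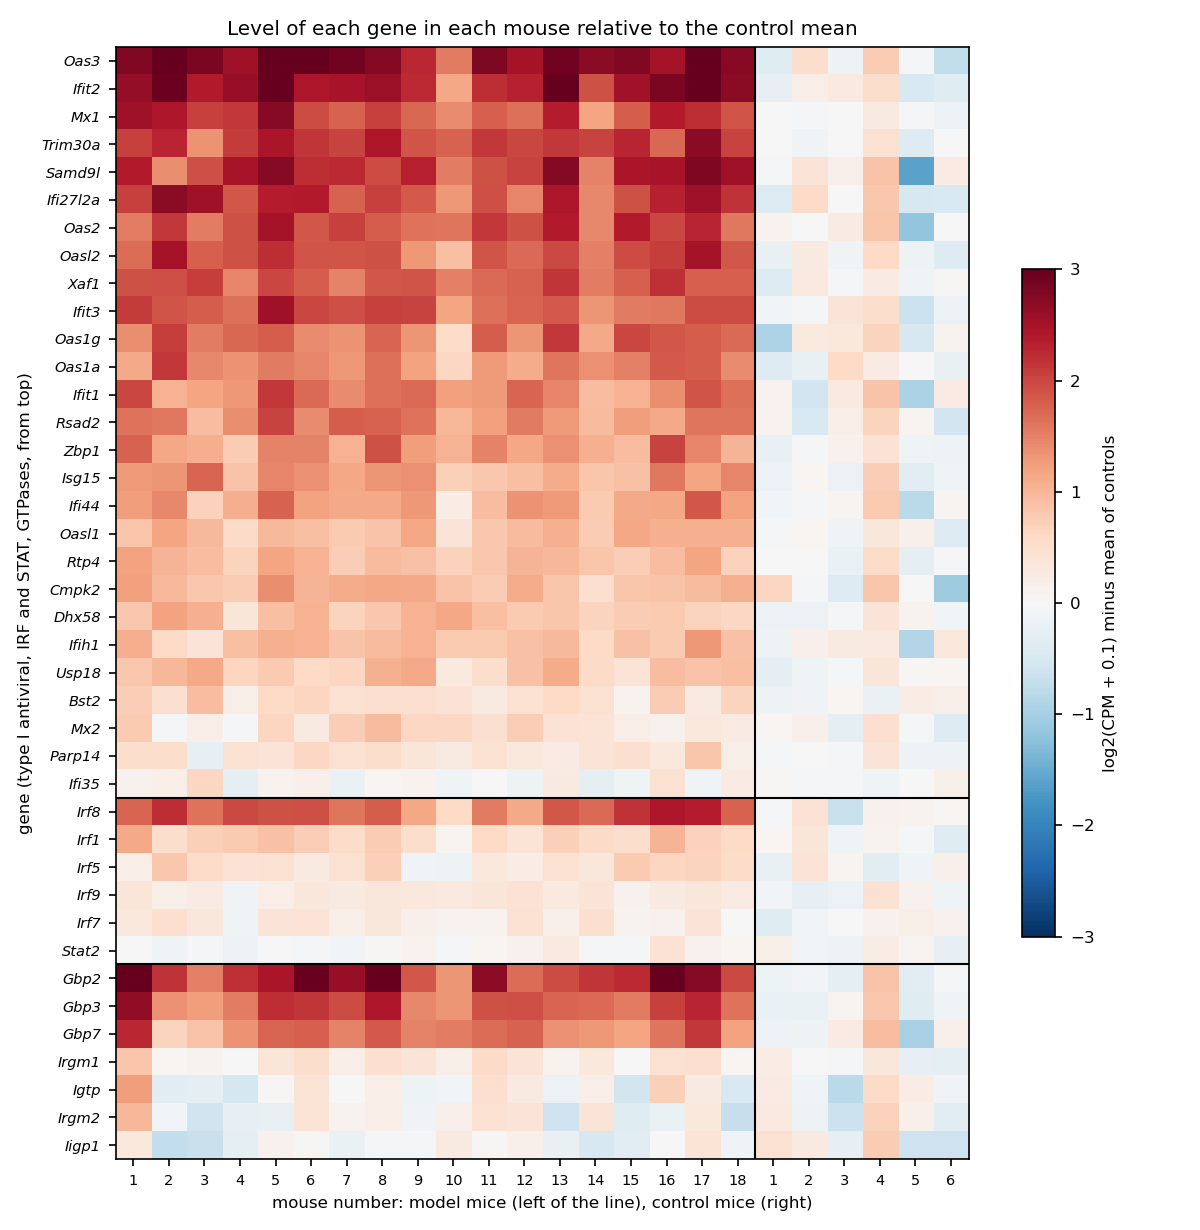
Level of each of the 40 genes (rows) in each mouse (columns; 18 model mice left of the line, 6 controls right of it) as log2(CPM + 0.1) minus the mean of the controls, on a colour scale from -3 to 3 at which larger values take the end colour. Rows are grouped as type I, IRF and STAT, and GTPase genes; control 4 is the reddest control column and model 10 the palest model column.

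The median difference from the control mean over the 40 genes, in log2 units, was lowest in model 10 at 0.71 and highest in model 5 at 1.49. Model 10 had the lowest level of the model mice for 15 of the 40 genes, 11 of them antiviral. Its summed macrophage (210 CPM), T cell (2.70), natural killer (0.778) and neutrophil markers (3.86) were also the lowest of the model mice. Its hepatocyte marker sum (1.15e+05 CPM) was the highest. For B cell, dendritic cell and endothelial markers another model mouse was lowest, and the part of cell composition was not tested. Model 1 had the highest level for 8 genes, among which were 6 of the 7 GTPases, and model 17 and model 2 were highest for 8 and 7. Among controls, control 4 was the highest for 31 of 40 genes, including 7 of 7 GTPases, at a median of 0.52 above the control mean, while the other controls lay between -0.13 and -0.03. Control 4 was also the smallest library. Its T cell (4.12 CPM), plasmacytoid dendritic cell (0.710) and endothelial marker sums (61.4) were the highest of the controls. For macrophage markers (116 CPM) and the other immune marker lists another control was higher, and no cause was tested. Without control 4 the median over the 40 genes was 1.39 instead of 1.19, and 26 genes were free of overlap instead of 20. Leaving out a mouse eases the no-overlap rule for all genes alike. The share over all tested genes without control 4 is not given, so the rise is not a result about the 40.

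The spread between mice was compared by a limma test of how far each mouse's log2 CPM lay from its group's median. None of the 40 genes was called, against 0.286% of all tested genes in either direction and 0.0286% with a larger spread in model mice. Before adjustment, p was below 0.05 for 3 of the 40 genes, which is no larger a share than the 9.38% of all tested genes: Mx1 spread more in model mice (SD 0.40 against 0.15 log2 units in controls, limma p = 0.0317, adjusted 0.451), while Cmpk2 (0.21 in model against 0.70 in control mice, adjusted 0.219) and Iigp1 (0.32 in model against 0.58 in control mice, adjusted 0.261) spread less there. The SD was larger in model than in control mice for 12 of 40 genes (30%), against 41.9% of all tested genes, with medians over the 40 of 0.31 in model and 0.37 in control mice. With 6 controls the SD of that group is itself uncertain, and control 4 contributes to it. Most of the 40 were also lower in controls, where fewer counts make the counting error of log2 CPM larger. Oas3, for example, had 63 counts over the 6 control libraries and an SD of 0.65 there. The share over all tested genes is therefore not a like comparison, and the part of counting error was not tested.

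Pairs of genes were then followed across the 18 model mice on the log2 CPM scale, with permutation p-values adjusted over 8 relations, of which 7 are given. Isg15 and Ifit3 went together (Pearson r = 0.62, permutation adjusted p = 0.021; Spearman rho = 0.57, adjusted p = 0.057). Model 10 and model 5 were the 2 mice farthest from the median of Ifit3. Without them r was 0.51 (permutation p = 0.044, adjusted p = 0.18) and no longer passed. Leaving out mice by their Ifit3 level narrows its range and lowers n to 16. The loss of the call therefore does not show that the relation depends on those mice. Igtp and Irgm2 had r = 0.77 (permutation adjusted p = 0.0018; rho = 0.79, adjusted p = 0.0014). Without model 1 and model 18 r was 0.61 (permutation p = 0.013, adjusted p = 0.10) and no longer passed, and the same limit holds. Igtp shares 8.01% of its exon bases with Irgm2, so part of their reads may be common.

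Across the gene groups, none of the relations given passed. Isg15 and Igtp had r = 0.09 (rho = 0.01, permutation adjusted p = 0.71 and 0.97), with r = -0.13 without model 1 and model 16. For Irf1 and Igtp r was 0.50 (rho = 0.33, permutation adjusted p = 0.07 and 0.37), and without model 1 and model 16 it was 0.04. Irf7 and Isg15 had r = 0.22 (rho = 0.18, permutation adjusted p = 0.44 and 0.54; 0.12 without 2 mice). With cell markers, Isg15 and Adgre1, the gene of the macrophage antigen F4/80, had r = -0.33 (rho = -0.26, permutation adjusted p = 0.29 and 0.46; -0.11 without 2 mice). Igtp and the T cell gene Cd3e had r = 0.25 (rho = 0.23, permutation adjusted p = 0.42 and 0.46; 0.20 without 2 mice).

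**Figure D5:**
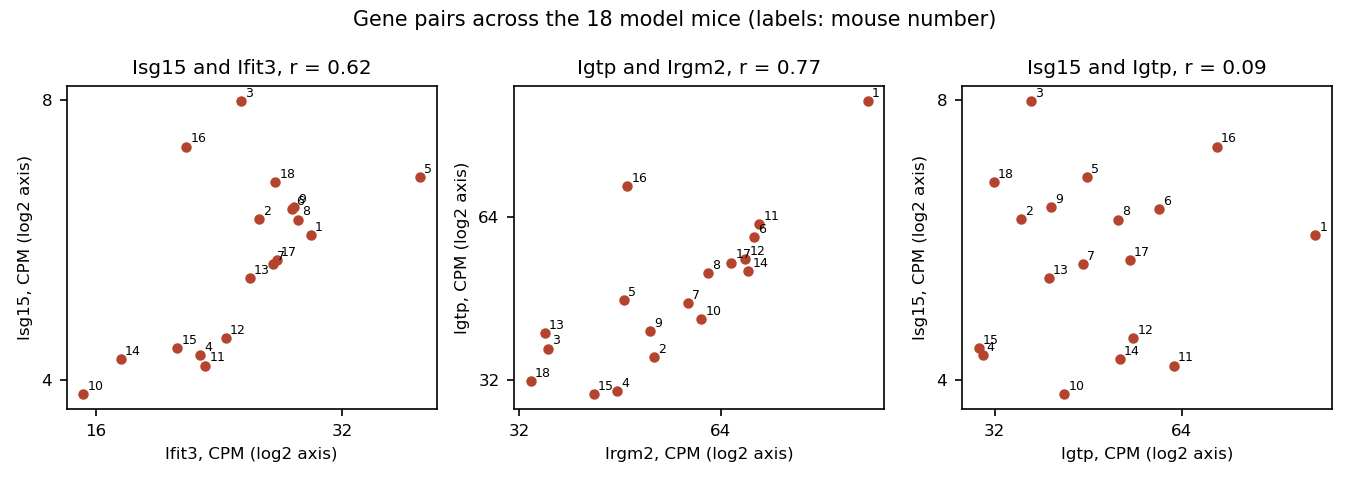
Levels of 3 gene pairs in the 18 model mice, in CPM on log2 axes, each point a mouse with its number and each panel with Pearson's r. Isg15 and Ifit3 (0.62) and Igtp and Irgm2 (0.77) run together, while Isg15 and Igtp (0.09) do not; model 1 stands alone at the top for both Igtp and Irgm2.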

How the data were processed

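Liver messenger RNA of 18 model and 6 control mice was sequenced, 1 library each, and groups came from the labels. The authors deposited raw counts per Ensembl gene with exon positions and a length column (another unit, bases, used for TPM and overlap). Per the submitters' processing notes the build was GRCm39. For the aligner, the counter, the annotation release and the strand setting, the sources used here give nothing. Symbols matched 51498 of 78298 IDs (99.6% of counts), from a reference of an earlier build used for names only. For 58 symbols shared by several IDs, the ID with the most counts was kept. In a library, 3 counts stand for 0.0514 to 0.0949 CPM. No libraries were alike within sampling noise (168 pairs, smallest chi-square per degree of freedom 19.1).

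The main test was edgeR 4.0.16 (R 4.3.3): robust quasi-likelihood F test, TMM factors, default filter, all 24 libraries, Benjamini-Hochberg adjusted p below 0.05. The SE is the absolute log2 fold change over the square root of F, and intervals use 22 residual degrees of freedom. Spread was tested with limma 3.58.1 on log2 CPM (prior count 2). TPM values carry no TMM factors and are given to order genes within a group. Correlations used 100000 two-sided permutations (scipy 1.17.1), figures matplotlib 3.10.9. Scripts were tested on simulated data. TMM factors were 0.990 to 1.16 in model and 0.813 to 0.891 in control libraries. Alternatives were RLE, upper-quartile and total scaling, DESeq2 1.42.0, limma-voom, other filters, a threshold of 0.01, a clock covariate, a block on the replicate number, and single libraries left out in turn.

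The members, lists and tests were chosen with earlier results of these data known. Genes given in full are, in each of the 3 groups, the 3 called members with the largest fold change, the most abundant and the uncalled ones, all IRF and STAT members and the genes of the relations; others are examples. For controls, the lowest, median and highest value stand for the 6 that the rule asked for. Protein sequences were not used here, and some list members and 1 of the 8 relations are not reported here.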

Additional observations from a re-analysis of the deposited data

Results flagged for a closer look

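In 5 of 42 genes checked, the highest of the 6 control mice stood apart from the next by a larger share of the group's range than Dixon's limit for 6 values, and in each case it was control 4. Isg15 had 3.91 CPM in control 4 and 2.43 in the next control (gap 0.718 of the range). For Rtp4 the values were 14.2 and 9.81 CPM (0.693), and for Parp14 they were 35.8 and 26.9 CPM (0.777). Gbp2 had 4.76 CPM against 2.5 (0.832), and Gbp3 had 4.48 against 2.67 (0.706). Chance alone flags about 1 in 20 groups of this size, and the genes are not independent of each other. Control 4 was the highest control for 31 of the 40 genes and had the smallest library, at 31.6 M counts. Its T cell, plasmacytoid dendritic cell and endothelial marker sums were also the highest of the controls, and no cause was tested.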

How the results depend on the processing

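Of the 35 genes called higher, 29 were called under all of the 33 settings run. Library totals alone shift all fold changes: the median over all genes was 0.342 (0.106 with upper-quartile factors, 0.0009 with RLE), genes called higher numbered 9406 and genes called lower 1562, and higher calls were 85.8% of all calls, against 52% with TMM, 50.7% with RLE and 62.8% with upper-quartile factors. The medians were then 1.52 over the 40, 1.75 for type I, 0.67 for IRF and STAT and 0.63 for GTPase genes; Ifi35 (0.41) and Stat2 (0.36) were called, and Iigp1 was at 0.15. With the clock covariate genes called lower numbered 3039, 3 IRF and STAT genes were called higher, Ifi35 was at -0.066 and Iigp1 at 0.47. With the replicate number as a block 3 IRF and STAT genes and 31 of the 40 were called, without Mx2 (0.31), Irf7 (0.30), Irf9 (0.21) and Irgm1 (0.31), and Stat2 was at -0.068. The labels do not say that equal numbers pair the mice. Over 6 pairs the correlations ran from -0.50 to 0.16, with 2 over 0.1, and no control correlated best with its own number. With 6 pairs this check cannot settle whether equal numbers share a batch.

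With each library left out, the median over the 40 ran from 1.09 to 1.39, and uncalled genes crossed 0: Igtp -0.038 to 0.22, Irgm2 -0.10 to 0.18, Stat2 -0.022 to 0.074 and Iigp1 -0.28 to 0.011. Genes with a larger spread in model mice numbered 5, but 156 without the filter on low counts, 16 with deviations from the mean, 71 on log2 deviations (chosen after seeing the data) and 0 to 1 with a library left out; the cause was not tested, and no member was called in any of these. Without the 2 farthest mice r was 0.51 for Isg15 and Ifit3, 0.61 for Igtp and Irgm2 and -0.13 for Isg15 and Igtp. With each model mouse left out, r ran from 0.53 to 0.74 (Isg15 and Ifit3), from 0.27 to 0.58 (Irf1 and Igtp) and from -0.025 to 0.21 (Isg15 and Igtp), and some of these crossed the threshold. Depth limits the ligands, none of which could be tested.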
